A study of Homo sapiens with 12 samples.

Results

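The hepatocyte growth factor receptor MET, its relative RON (gene MST1R) and the MET ligand HGF were examined on expression arrays of HCC827 lung adenocarcinoma cells and cells made from them. Every probe set annotated to a single symbol among MET, MST1R and HGF was taken, which gave 10 of the 22277 probe sets on the array: 4 for MET, 1 for MST1R and 5 for HGF. HCC827 is an established human line whose growth depends on a mutant, active EGFR kinase.

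The arrays fall into 4 groups of 3. ERC4 cells, labelled resistant to the EGFR inhibitor erlotinib, were compared with parental HCC827 cells. Cells carrying a lentiviral shRNA against EGFR (Esh9-1) were compared with cells carrying a non-target lentiviral shRNA (HCC827NT). The labels put all cells in RPMI with 5% FBS, and the 2 transduced groups also under 5 ug/ml puromycin. ERC4 is a single resistant line and Esh9-1 a single shRNA label, and the labels do not say whether erlotinib was present at harvest or whether replicates came from separate cultures. The p-values therefore measure only the spread between these arrays, which may be technical. One label calls all 12 samples resistant, so the groups were taken from the titles and cell descriptions. Array medians on the scale log2(intensity + 1) were 5.67 to 5.75 on the ERC4 and HCC827 arrays and 7.15 to 7.17 on the Esh9-1 and HCC827NT arrays. Levels were thus compared only within each set of 6. The ERC4 and HCC827 arrays also differed in distribution, with a 75th percentile of 7.26 ± 0.01 and 7.12 ± 0.01 (SD, n = 3 each, log2 scale). It was 8.97 ± 0.01 in Esh9-1 and 8.96 ± 0.01 in HCC827NT. The main fit did not even this out, and a quantile normalization of each set was run as an alternative.

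MET and RON are receptor tyrosine kinases of one family, found on epithelial cells. HGF, secreted mainly by mesenchymal cells, binds MET, and macrophage-stimulating protein (MSP, gene MST1) binds RON. Both ligands are made as inactive single chains that serine proteases such as matriptase cut into the active form. The activated receptors signal through adaptors such as GRB2 and GAB1 to the RAS and PI3-kinase pathways, and extra copies of MET or added HGF are known routes by which EGFR-dependent lung cancer cells escape EGFR inhibitors.

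In both comparisons MST1R fell by more than 2-fold, to 3.09-fold lower in ERC4 cells and 3.81-fold lower in Esh9-1 cells. No MET probe set was called higher in either comparison. Of the 4, 3 fell in Esh9-1 cells, by 2.13-fold to 3.49-fold, while 203510_at did not pass the test, and the same 3 fell by 1.29-fold to 1.43-fold in ERC4 cells. Of the HGF probe sets, 4 of 5 lay under the array median on all 12 arrays. In bulk RNA, fewer cells with a transcript and less of it per cell cannot be told apart.

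A probe set counts as called where its limma p, adjusted by Benjamini-Hochberg over 22215 probe sets, was under 0.05. In ERC4 against HCC827, 6 of the 10 probe sets were called lower, 0 higher and 4 were not called, where 54.1% of all probe sets were called, 28.3% lower and 25.8% higher. In Esh9-1 against HCC827NT, 6 were called lower, 1 higher and 3 were not called, where 47.4% of all probe sets were called, 24.2% lower and 23.2% higher. The members' median log2 fold change was -0.34 in ERC4 and -0.60 in Esh9-1, beside -0.06 and -0.03 over all probe sets. With so many calls over the whole array, a call by itself sets a member little apart, and the sizes carry more. A fall of at least 2-fold was called in 1.52% of all probe sets in ERC4, where MST1R was the only member among them. It was called in 4.25% in Esh9-1, where MST1R and 3 MET probe sets were.

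EGFR, the target of the shRNA, checks the labels. Its 4 bright probe sets fell in Esh9-1 cells, with log2 fold changes of -1.30 (201983_s_at), -2.16 (201984_s_at), -2.70 (210984_x_at) and -2.72 (211607_x_at), while 211551_at (0.18) and 211550_at (0.06) were not called. In ERC4 cells the log2 fold changes were 0.21 and 0.66 in 201983_s_at and 201984_s_at, both called. They were 0.27 and 0.26 in 210984_x_at and 211607_x_at, neither called (adjusted p = 0.062 each), and 0.06 and -0.06 in 211551_at and 211550_at. The call of 201983_s_at in ERC4 ended under 6 alternatives, among them a quantile normalization of each set (0.15, adjusted p = 0.12), while 210984_x_at and 211607_x_at gained one under several.

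The epithelial marker genes EPCAM, KRT7, KRT8, KRT18, KRT19 and CDH1 were above the array medians in HCC827 and HCC827NT cells, and 6 of 6 fell in each comparison, with median log2 fold changes of -1.77 in ERC4 and -3.32 in Esh9-1. Their summed intensity was 7844.1 to 8285.4 in ERC4 and 18139 to 18460.6 in HCC827, and 10020.8 to 10432.3 in Esh9-1 and 57508.1 to 58868.8 in HCC827NT. Over all genes, 28.2% were called lower in ERC4 and 24.3% in Esh9-1. The loss of epithelial marker signal thus moved with the fall of MST1R and with that of 3 of the 4 MET probe sets. In ERC4 these 3 fell by less than 2-fold, with log2 fold changes of -0.37, -0.40 and -0.51. MET 203510_at was not called in either comparison. The part of the epithelial loss in these falls was not tested. The array's 18 hybridisation control probe sets, which read material added to each sample, differed too, by -1.56 on the log2 scale between ERC4 and HCC827 and by 0.55 between Esh9-1 and HCC827NT. The part of what these controls show in the results was not tested.

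MST1R encodes RON and lies on chr3:49887002-49903873 (GRCh38.p14). Its probe set 205455_at had log2 levels of 5.67, 5.56 and 5.73 in the ERC4 replicates, against 7.36, 7.15 and 7.32 in the HCC827 replicates. It had 6.52, 6.34 and 6.67 in Esh9-1, against 8.40, 8.45 and 8.46 in HCC827NT. In each comparison the groups were far apart and did not overlap. Lack of overlap at any distance was found for 58.2% of all probe sets in ERC4 and 58.8% in Esh9-1. The means were 5.65 ± 0.09 in ERC4 and 7.28 ± 0.11 in HCC827 (SD, n = 3 each), a log2 fold change of -1.63 ± 0.09 (SE; limma adjusted p = 3.2e-09). They were 6.51 ± 0.17 in Esh9-1 and 8.44 ± 0.03 in HCC827NT, a log2 fold change of -1.93 ± 0.09 (adjusted p = 1.8e-10).

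On the ERC4 arrays the RON probe set ranked at the 48th to 51st percentile of all probe sets, against the 75th to 79th on the HCC827 arrays. On the Esh9-1 arrays it ranked at the 38th to 43rd percentile, against the 68th on each HCC827NT array. Signal in the ERC4 and Esh9-1 cells lay close to or under the array median, so the fold sizes rest on dim signal on that side. Both falls stayed called under all 21 alternatives, with log2 fold changes between -1.69 and -1.57 in ERC4 and between -2.01 and -1.84 in Esh9-1. The difference between the ERC4 and the Esh9-1 effect was 0.30 ± 0.13 (SE) and was not called (adjusted p = 0.061), with a 95% interval of 0.03 to 0.57. It was called under 6 of 21 alternatives, at 0.30 to 0.38. When the narrower ERC4 and HCC827 values were stretched to the spread of the other set it was -0.02.

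The stretch of DNA around the start of each receptor gene is shown because RON fell together with epithelial genes in both comparisons, while among the MET probe sets 3 of 4 fell in both and 203510_at was not called in either. Both run 5′ to 3′ on the gene's strand from 250 bases before the RefSeq start to 50 bases from it (GRCh38.p14, chr3:49903824-49904123 minus strand for MST1R and chr7:116671946-116672245 plus strand for MET). Capitals mark the E-box CAGGTG or its reverse complement CACCTG, one form of the sites that the ZEB and SNAIL repressors of epithelial genes can bind. The search covered both strands, and the motif was chosen after the values were seen.
MST1R: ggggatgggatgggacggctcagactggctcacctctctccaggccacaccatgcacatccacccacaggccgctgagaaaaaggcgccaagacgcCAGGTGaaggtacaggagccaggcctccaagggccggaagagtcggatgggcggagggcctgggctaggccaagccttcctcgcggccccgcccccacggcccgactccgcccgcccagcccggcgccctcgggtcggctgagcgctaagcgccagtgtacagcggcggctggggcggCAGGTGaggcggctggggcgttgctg
MET: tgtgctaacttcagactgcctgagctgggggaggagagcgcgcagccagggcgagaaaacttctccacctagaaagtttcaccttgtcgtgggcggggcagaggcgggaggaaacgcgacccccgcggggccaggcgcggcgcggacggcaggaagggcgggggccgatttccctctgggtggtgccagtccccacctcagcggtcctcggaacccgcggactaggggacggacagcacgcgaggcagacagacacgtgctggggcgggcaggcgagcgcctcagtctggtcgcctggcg
The MST1R window holds 2 such E-boxes, the first beginning 154 bases before the start and the second 24 bases after it. The MET window holds 0, and so does the HGF window. Of 35116 promoter windows of 300 bases in the RefSeq table, 20.6% hold at least 1 and 3.49% at least 2. A GC box (GGGCGG or its reverse complement CCGCCC, on either strand) occurs 5 times in the MST1R window and 3 times in that of MET, and at least 1 in 45% of the windows. These are matches of letters, and no binding was measured. Shorter forms of the E-box, such as CACCT, were not counted. The MET window holds that one at several places, and the MST1R window holds it outside the capitals too. The difference between the windows is thus for the full motif only. A part of these repressors in the RON or MET results was not tested.

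**Figure D1:**
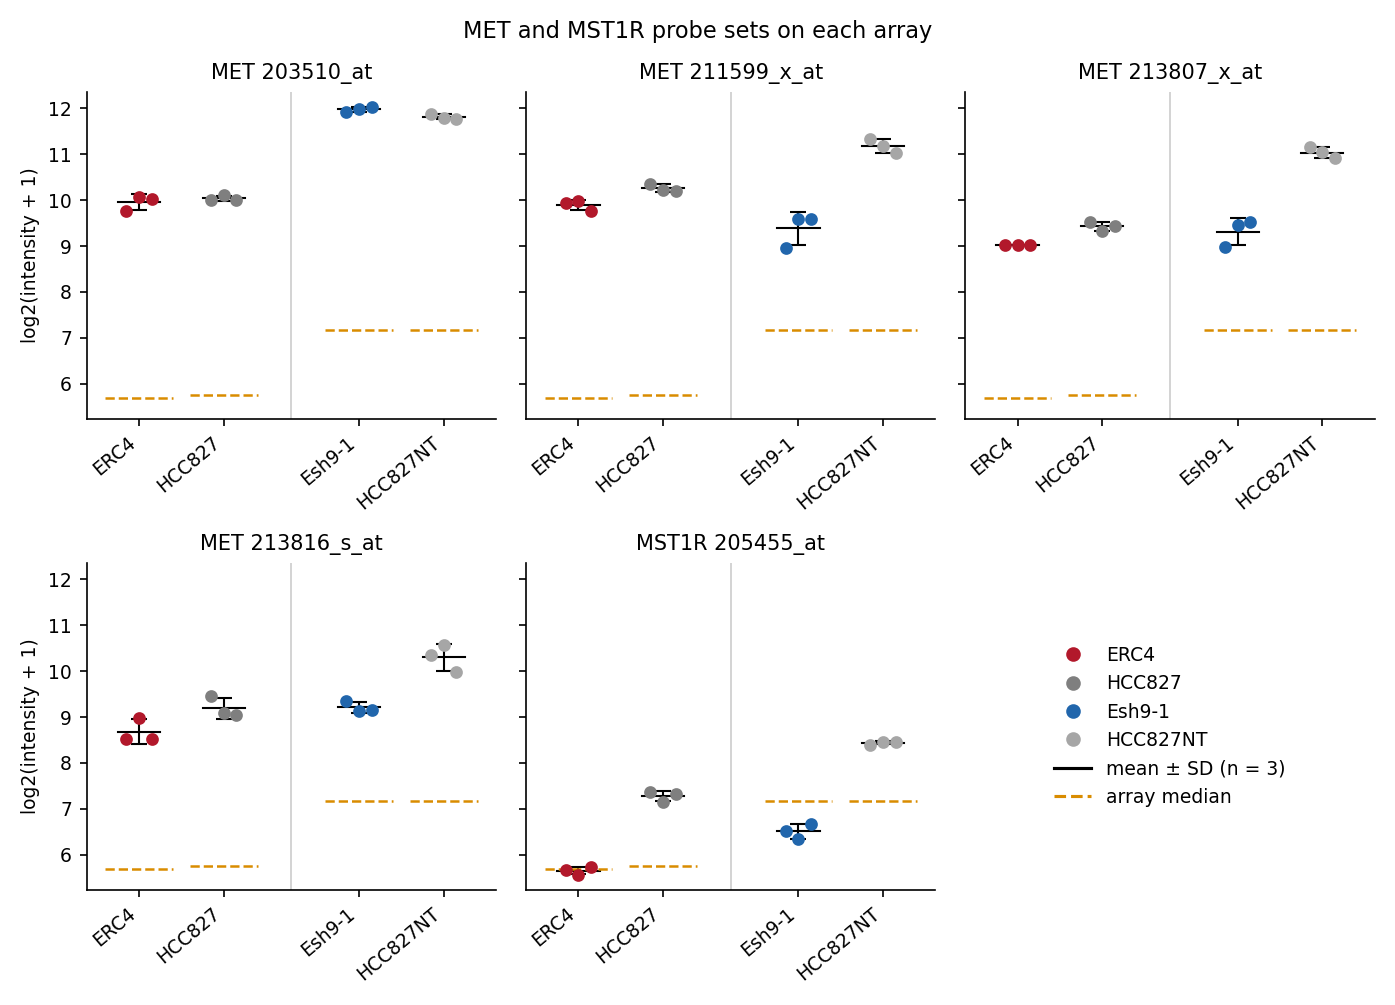
Each panel is one probe set of MET or MST1R, with log2(intensity + 1) of every array as points, the mean ± SD of each group of 3 in black and the array median as a dashed line. RON (205455_at) lies lower in ERC4 than in HCC827 and in Esh9-1 than in HCC827NT, while MET 203510_at differs little within each set and the other 3 MET probe sets lie lower in Esh9-1 than in HCC827NT.

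MET lies on chr7:116672196-116798377 (GRCh38.p14) and its probe sets were among the bright ones, though brightness also depends on the probes. Probe set 203510_at had the highest mean of the 4 over the 12 arrays, though 211599_x_at read higher on each HCC827 array and on ERC4 replicate 1. It ranked at the 96th to 97th percentile on all 12 arrays. It read 9.76, 10.08 and 10.03 in ERC4, against 10.01, 10.11 and 10.01 in HCC827, and these groups overlapped. It read 11.92, 11.98 and 12.04 in Esh9-1, against 11.88, 11.80 and 11.77 in HCC827NT, where the groups did not overlap but differed little. The log2 fold change was -0.08 ± 0.08 (SE; adjusted p = 0.42) in ERC4, with a 95% interval of -0.26 to 0.10. In Esh9-1 it was 0.16 ± 0.08 (adjusted p = 0.13), with an interval of -0.02 to 0.34. These intervals leave room for small changes but not, on this probe set, for a 2-fold one. Neither result was firm against the processing: in ERC4 a quantile normalization of each set gave -0.26 and a call (adjusted p = 0.015), and leaving out ERC4 replicate 1 gave 0.01. In Esh9-1 a trended, robust variance estimate gave a call at 0.16 (adjusted p = 0.044).

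The other MET probe sets gave another picture. By Affymetrix naming, the suffix _x_at marks a probe set whose probes may also match other transcripts, and _s_at one shared by several transcripts. Probe set 211599_x_at read 9.94, 9.98 and 9.77 in ERC4, against 10.36, 10.23 and 10.21 in HCC827, and 8.96, 9.60 and 9.59 in Esh9-1, against 11.33, 11.19 and 11.03 in HCC827NT. Probe set 213807_x_at read 9.03, 9.02 and 9.03 in ERC4, against 9.52, 9.33 and 9.43 in HCC827, and 8.97, 9.45 and 9.52 in Esh9-1, against 11.15, 11.06 and 10.91 in HCC827NT. In both, every ERC4 array was slightly below every HCC827 array, every Esh9-1 array was far below every HCC827NT array, and replicate 1 was the lowest Esh9-1 array. Probe set 213816_s_at read 8.52, 8.99 and 8.53 in ERC4, against 9.46, 9.09 and 9.04 in HCC827, and 9.35, 9.14 and 9.15 in Esh9-1, against 10.36, 10.57 and 9.99 in HCC827NT. Its groups did not overlap either, though in the first set the gap was narrow. Lack of overlap by itself is common, found for 58.2% of all probe sets in ERC4 and 58.8% in Esh9-1.

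In Esh9-1 the log2 fold changes were -1.80 ± 0.14 in 211599_x_at (adjusted p = 6.4e-08), -1.73 ± 0.12 in 213807_x_at (1.7e-08) and -1.09 ± 0.16 in 213816_s_at (3.5e-05). The 3 calls held under all 21 alternatives, and without Esh9-1 replicate 1 the falls were smallest at -1.59 and -1.55 for the _x_at probe sets. In ERC4 they were -0.37 ± 0.14 (adjusted p = 0.038), -0.40 ± 0.12 (0.011) and -0.51 ± 0.16 (0.013). Over the 21 alternatives these ERC4 values ranged from -0.56 to -0.31, from -0.62 to -0.34 and from -0.73 to -0.38, so some were larger falls. The call of 211599_x_at in ERC4 ended on leaving out any one of the 6 arrays compared, with log2 fold changes of -0.41 to -0.31, and that of 213816_s_at on leaving out HCC827 replicate 1 (-0.38), ERC4 replicate 1 (-0.43) or ERC4 replicate 3 (-0.44). The fall of 213807_x_at stayed called under all but the stricter threshold of 0.01.

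**Figure D2:**
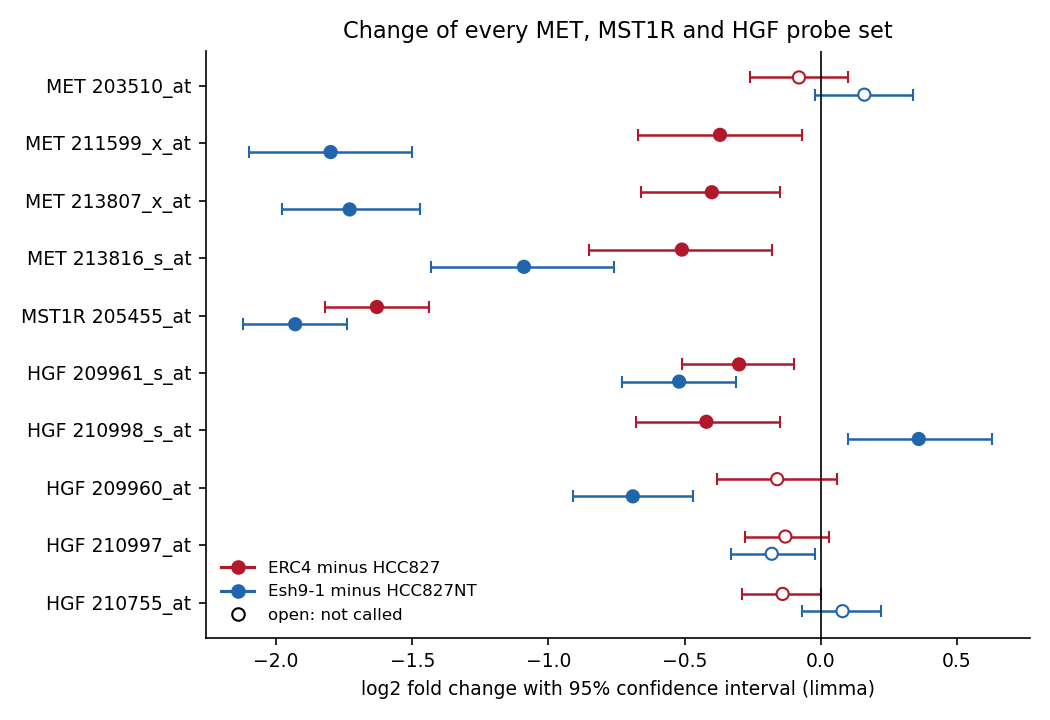
Log2 fold changes of the 10 probe sets (points, filled where called) with 95% confidence intervals from limma, ERC4 minus HCC827 in red and Esh9-1 minus HCC827NT in blue. RON lies near -1.63 and -1.93, and the MET probe sets spread from 0.16 to -1.80 in Esh9-1.

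To set the MET probe sets against each other free of array-wide scaling, the mean of the other 3 was subtracted from 203510_at within each array. This difference was 0.60, 0.75 and 0.92 in ERC4, against 0.23, 0.56 and 0.45 in HCC827. It was 2.83, 2.59 and 2.61 in Esh9-1, against 0.94, 0.86 and 1.13 in HCC827NT. It was wider by 0.35 in ERC4 than in HCC827 and by 1.70 in Esh9-1 than in HCC827NT, given as a description without a test, since the disagreement of the MET probe sets was known when they were taken up. The spread of log2 fold changes among the MET probe sets was 0.43 in ERC4 and 1.96 in Esh9-1. Among 2338 genes with at least 2 probe sets at or above the array median in Esh9-1 or HCC827NT, the median spread was 0.41, and 1.41% had one as wide as that of MET. Among the 217 of them with at least 4 such probe sets, the median was 0.78 and 5.99% reached the spread of MET. In ERC4 the median was 0.32 over 2228 genes and 37.3% reached the spread of MET. Among the 205 of these with at least 4 such probe sets, the median was 0.59 and 73.2% reached it, so in ERC4 the MET probe sets lay closer together than those of most such genes.

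The array's own controls read different ends of a transcript. For ACTB the 3′ control exceeded the 5′ control by 1.07 ± 0.15 in Esh9-1 and 0.20 ± 0.03 in HCC827NT (SD, n = 3 each) on the log2 scale, and by 0.19 ± 0.04 in ERC4 and 0.22 ± 0.05 in HCC827. The GAPDH controls gave 0.30 ± 0.08 in Esh9-1 and -0.05 ± 0.02 in HCC827NT, and -0.08 ± 0.03 in ERC4 and 0.06 ± 0.03 in HCC827, a smaller shift the other way. A wider difference between 3′ and 5′ control signal thus moved with the comparison in which the MET probe sets parted most. Where each MET probe set lies along the transcript is not given in the sources used here. The part of this wider difference in the MET results was not tested. EGFR, also with several bright probe sets, parted in the same comparison: its probe set of highest mean minus the mean of the next 3 was 2.84 ± 0.03 in Esh9-1 and 1.61 ± 0.18 in HCC827NT, and 1.43 ± 0.13 in ERC4 and 1.61 ± 0.03 in HCC827.

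The within-array difference of the RON probe set minus MET 203510_at shows the shift between the receptors, not their relative abundance, since levels of different probe sets cannot be compared. It was -4.09, -4.52 and -4.31 in ERC4, against -2.64, -2.96 and -2.69 in HCC827. It was -5.40, -5.65 and -5.37 in Esh9-1, against -3.48, -3.35 and -3.31 in HCC827NT. The groups did not overlap in either set, with shifts of -1.54 and -2.09 (two-sided exact permutation p = 0.1 for each, the smallest that 3 arrays against 3 allow). Groups without overlap can give no other p, and the members were chosen with earlier results known. The p thus adds nothing to the separation itself. Against the mean of the other 3 MET probe sets the shift was -1.20 in ERC4 but -0.39 in Esh9-1. How far RON fell relative to MET in Esh9-1 thus depended on the MET probe set chosen.

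**Figure D3:**
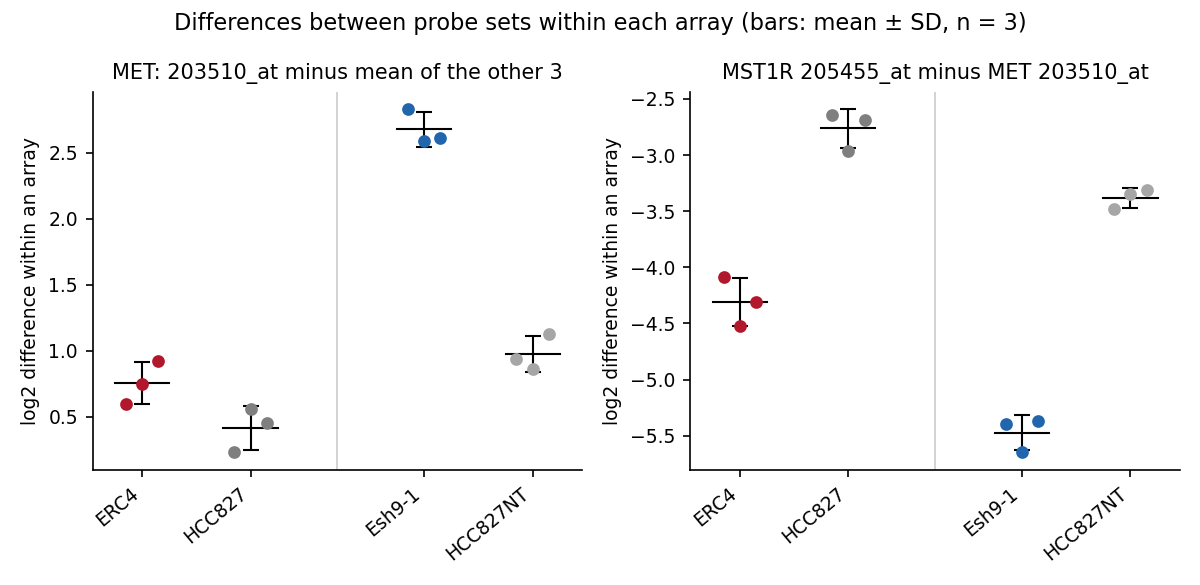
Log2 differences between probe sets within each array (points) with mean ± SD of 3 arrays, on the left MET 203510_at minus the mean of the other 3 MET probe sets and on the right RON 205455_at minus MET 203510_at. The MET probe sets stand widest apart in Esh9-1 (2.59 to 2.83), and RON lies lower against MET in ERC4 than in HCC827 and in Esh9-1 than in HCC827NT.

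HGF, on chr7:81699010-81770047 (GRCh38.p14), encodes the MET ligand. Of its 5 probe sets, 4 lay under the array median on all 12 arrays, with 209960_at between the 3rd and 18th percentile, 210997_at between the 2nd and 6th, 210755_at between the 1st and 3rd and 210998_s_at between the 22nd and 38th. Probe set 209961_s_at was brighter, at the 53rd to 73rd percentile. It read 6.58, 6.60 and 6.41 in ERC4, against 6.95, 6.83 and 6.71 in HCC827. It read 7.67, 7.67 and 7.39 in Esh9-1, against 8.18, 8.14 and 7.97 in HCC827NT. The ranges came close without overlapping, where 58.2% of all probe sets did not overlap in ERC4 and 58.8% in Esh9-1. The log2 fold changes of 209961_s_at were -0.30 ± 0.10 in ERC4 (adjusted p = 0.017) and -0.52 ± 0.10 in Esh9-1 (adjusted p = 0.00037). In ERC4 this call ended without HCC827 replicate 1 (-0.24, adjusted p = 0.069) or ERC4 replicate 3 (-0.24, adjusted p = 0.075).

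Dim HGF probe sets were called too. Probe set 210998_s_at read 4.70, 4.57 and 4.59 in ERC4, against 5.14, 5.19 and 4.77 in HCC827, a log2 fold change of -0.42 ± 0.12 (adjusted p = 0.012). It read 6.15, 5.79 and 5.73 in Esh9-1, against 5.64, 5.58 and 5.37 in HCC827NT, a log2 fold change of 0.36 ± 0.12 (adjusted p = 0.026). The rise in Esh9-1 was not called without Esh9-1 replicate 1 (0.23, adjusted p = 0.14) or HCC827NT replicate 3 (0.28, adjusted p = 0.12), and the fall in ERC4 was not called under a quantile normalization of each set (-0.30, adjusted p = 0.062). Probe set 209960_at read 4.33, 4.22 and 4.07 in Esh9-1, against 4.73, 5.12 and 4.83 in HCC827NT, a log2 fold change of -0.69 ± 0.10 (adjusted p = 5.3e-05), and -0.16 ± 0.10 in ERC4 (adjusted p = 0.19). Probe sets 210997_at (-0.13 and -0.18) and 210755_at (-0.14 and 0.08) were not called in ERC4 or in Esh9-1. HGF probe sets thus changed in opposite directions in Esh9-1, all by less than 2-fold, and of the 3 called there 209961_s_at lay above the array median and 209960_at and 210998_s_at under it.

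Fibroblasts are a usual source of HGF, and the array carried 8 fibroblast markers. The summed intensity of the 8 was 344.3 to 371.6 in ERC4 and 435.5 to 449 in HCC827, and 1012.9 to 1061.8 in Esh9-1 and 985.4 to 1087.8 in HCC827NT. COL1A1 (217430_x_at) was the brightest and weighed most in these sums. Its mean log2 level was 7.35 in ERC4, 7.64 in HCC827, 8.97 in Esh9-1 and 9.05 in HCC827NT, above the array medians. In ERC4, 1 was called higher and 5 lower, and 6 of the 8 lay under the array medians in both groups. In Esh9-1, 1 was higher (LUM, the gene of the matrix protein lumican, at 6.78 in Esh9-1 and 4.22 in HCC827NT, under the median in both) and 1 lower, and 7 of the 8 lay under the medians in both groups. Of 5 measured leukocyte markers, 2 were lower and 0 higher in each comparison, with summed intensities of 138.8 to 159.3 in ERC4 and 180.7 to 207.5 in HCC827, and of 290.3 to 343.3 in Esh9-1 and 370.2 to 404.7 in HCC827NT. Beside these counts, 28.6% of all genes were called higher and 28.2% lower in ERC4, and 24.9% higher and 24.3% lower in Esh9-1. No marker was at 0, since RMA gives every probe set a positive value.

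**Figure D4:**
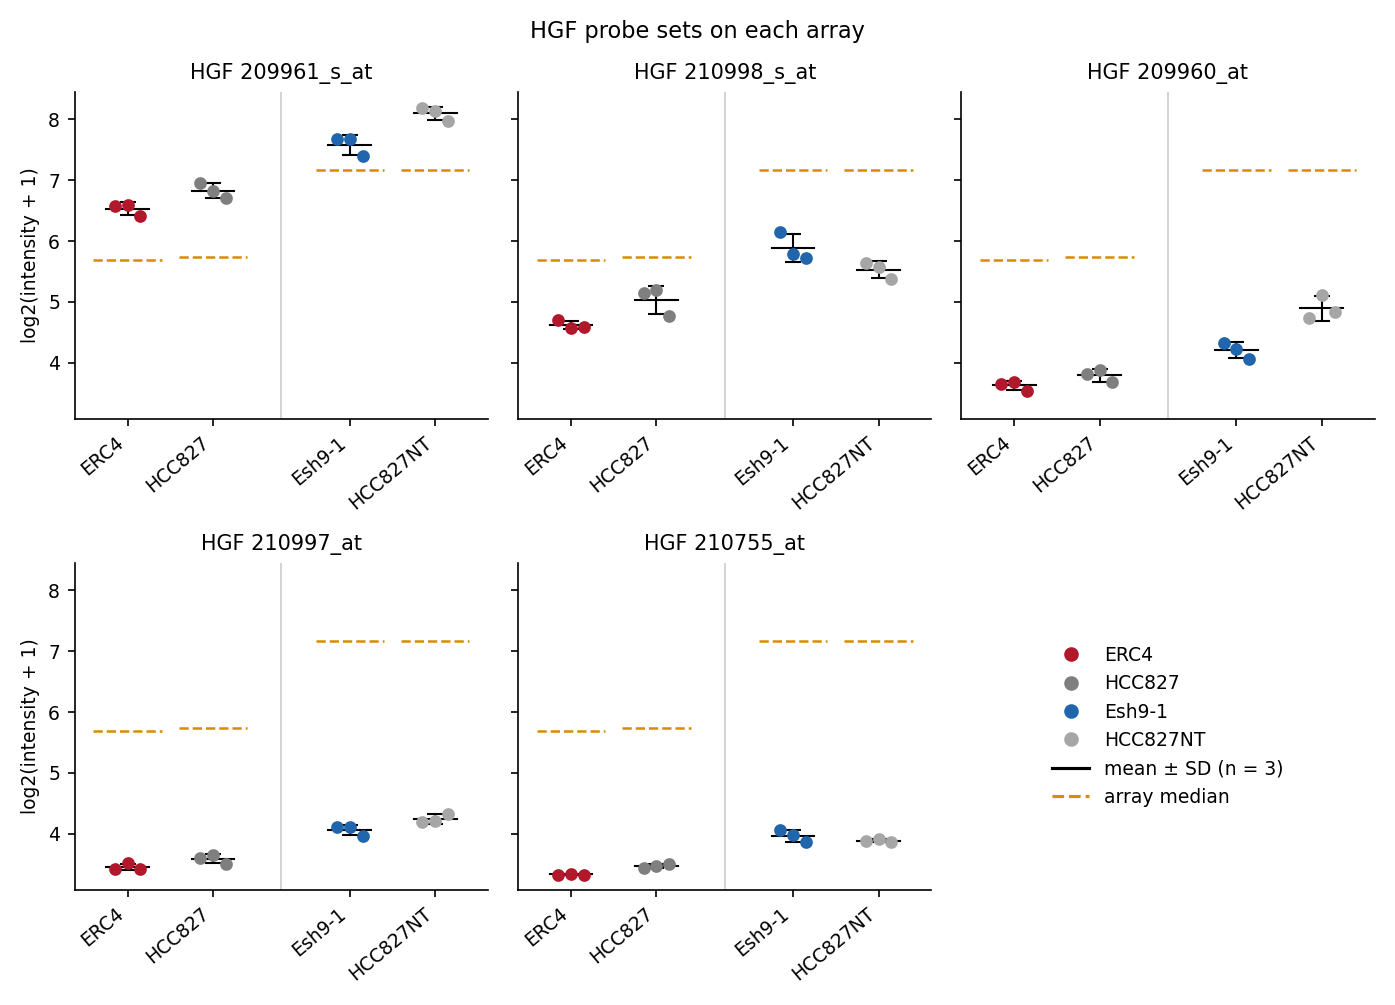
Each panel is one HGF probe set, with log2(intensity + 1) of every array as points, mean ± SD of each group of 3 in black and the array median as a dashed line. Only 209961_s_at lies above the array medians, and group differences are small in every panel.

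The genes that make HGF and MSP active, and those that hold this step back, included the strongest changes of the pathway. Of 14 measured, 8 were lower and 1 higher in ERC4, with a median log2 fold change of -0.40, and 5 lower and 1 higher in Esh9-1, with a median of -0.08. Over all 11963 genes, with 1 probe set for each, 28.2% were lower and 28.6% higher in ERC4 (median -0.04), and 24.3% lower and 24.9% higher in Esh9-1 (median -0.02). ST14, which encodes matriptase, a membrane protease that cuts the precursors of both ligands, averaged 6.27 in ERC4 and 8.95 in HCC827, a log2 fold change of -2.68 ± 0.08 (adjusted p = 6.4e-12). It averaged 7.07 in Esh9-1 and 10.08 in HCC827NT, a log2 fold change of -3.01 ± 0.08 (adjusted p = 4.1e-13). Its probe set 216905_s_at fell further (-3.70 and -4.43), while 216906_at was called at -0.54 in ERC4 and not called in Esh9-1 (-0.01). SPINT1, encoding the matriptase inhibitor HAI-1, fell with log2 fold changes of -2.36 ± 0.13 in ERC4 and -3.74 ± 0.13 in Esh9-1. SPINT2, encoding the related inhibitor HAI-2, fell with -1.34 ± 0.07 in ERC4 and -0.72 ± 0.07 in Esh9-1 (SE, as in the log2 fold changes that follow). A protease and both of its inhibitors thus fell in the same cells.

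PLAU, encoding urokinase, gave -0.89 ± 0.07 in ERC4 and 0.90 ± 0.07 in Esh9-1, both called, but its second probe set 211668_s_at was called lower in Esh9-1 (-0.23). F12, the coagulation factor gene whose product can activate HGF, gave 0.76 ± 0.10 in ERC4 and -0.66 ± 0.10 in Esh9-1. MST1, the gene of the RON ligand, was not called in its brighter probe set, at -0.02 in ERC4 and 0.00 in Esh9-1, while its dimmer one, 216320_x_at, was called lower in ERC4 (-0.27). HGFAC, encoding the HGF activator of plasma, was dim and not called (-0.16 and 0.00).

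**Figure D5:**
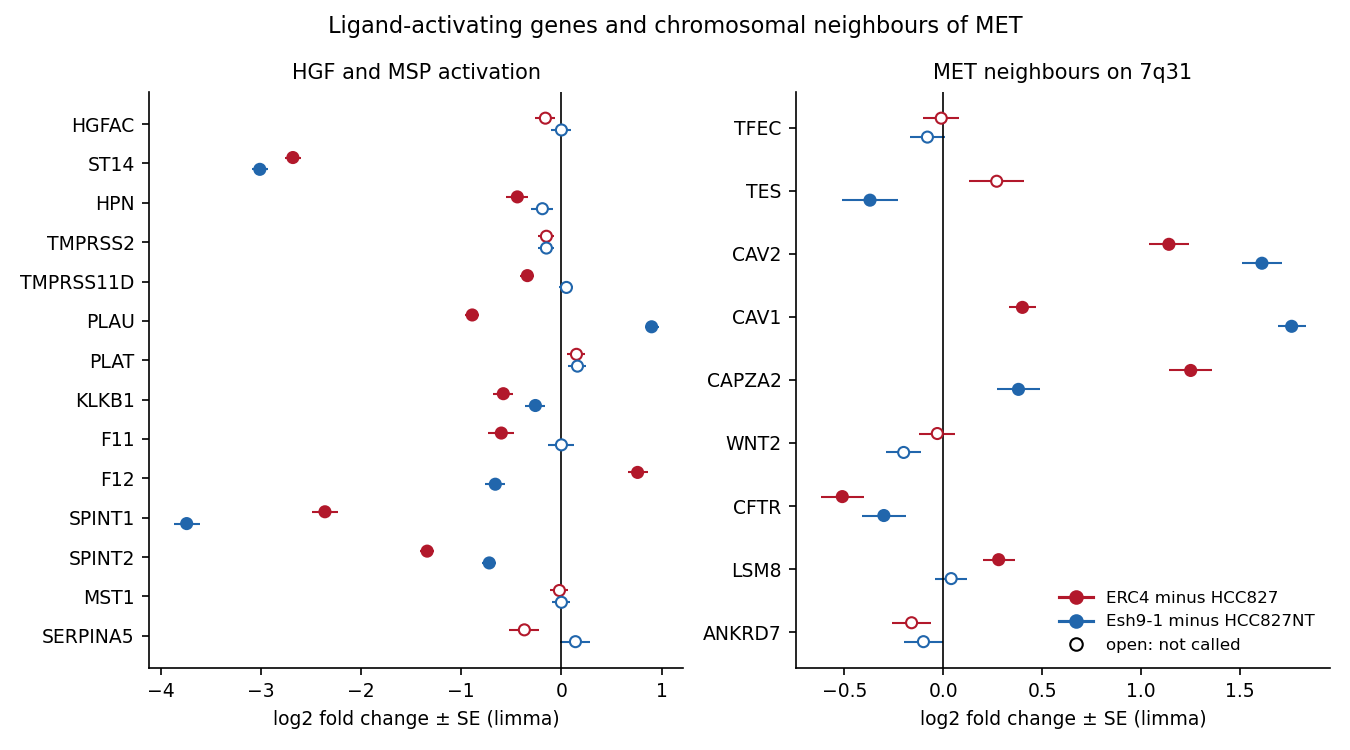
Log2 fold changes ± SE from limma, filled where called, for the ligand-activation genes (left) and the measured neighbours of MET on 7q31 (right), ERC4 minus HCC827 in red and Esh9-1 minus HCC827NT in blue. ST14, SPINT1 and SPINT2 lie left of 0 in both comparisons, and CAV1, CAV2 and CAPZA2 lie right of 0 in both.

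The adaptors and effectors of the receptors were read from 1 probe set per gene, the one of highest mean. Of 12 measured among 15 listed, 4 were higher and 2 lower in ERC4 (median 0.01), and 2 higher and 5 lower in Esh9-1 (median -0.17), with no call past 2-fold on these probe sets. Among all genes, 28.6% were called higher and 28.2% lower in ERC4, and 24.9% higher and 24.3% lower in Esh9-1. Other probe sets of PTPN11 and CRKL were called lower by over 2-fold in Esh9-1, among them PTPN11 205868_s_at (-1.54) and CRKL 206184_at (-1.69). PTPN11, encoding the phosphatase SHP2 that binds GAB1, rose by 0.67 ± 0.08 in ERC4, and GRB2 fell with -0.44 ± 0.07. CRKL (0.31 ± 0.08), CBLB (0.39 ± 0.14, dim) and GAB1 (-0.42 ± 0.13, dim) were called in ERC4 too. Under a quantile normalization of each set, CRKL (0.09) and GAB1 (-0.30) were no longer called. The CBLB call also ended without HCC827 replicate 1 (0.37) or 3 (0.35) or ERC4 replicate 1 (0.28) or 2 (0.38), and the GAB1 call without HCC827 replicate 1 (-0.28) or ERC4 replicate 3 (-0.35). In Esh9-1 CBLB and CBL, encoding ubiquitin ligases that send activated MET for degradation, fell, with -0.94 ± 0.14 and -0.69 ± 0.10. The docking protein gene GAB1 (dim here too) and the transcription factor gene STAT3 fell too, with -0.81 ± 0.13 and -0.66 ± 0.08, while PLCG1 rose by 0.68 ± 0.10. For CBLB and for GAB1, 1 of 2 probe sets was called in each comparison.

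Of 14 measured surface partners and negative regulators among 16 listed, 6 were higher and 5 lower in ERC4 (median 0.16), and 5 higher and 6 lower in Esh9-1 (median -0.12). Among all genes, 28.6% were called higher and 28.2% lower in ERC4, and 24.9% higher and 24.3% lower in Esh9-1. ITGB4, encoding the integrin beta 4 chain that can join MET at the membrane, fell with -2.41 ± 0.09 in ERC4 and -2.39 ± 0.09 in Esh9-1. Its partner chain gene ITGA6 fell with -0.95 ± 0.08 in ERC4. CD44, a co-receptor of MET, rose by 0.80 ± 0.08 in ERC4, where all 8 of its probe sets were called higher, and by 1.98 ± 0.08 in Esh9-1, where 7 of 8 were. ADAM10, encoding a protease that sheds the MET ectodomain, rose by 1.25 ± 0.12 in ERC4 and by 0.73 ± 0.12 in Esh9-1. The neuropilin gene NRP1, whose product can join HGF and MET, gave 1.21 ± 0.08 in ERC4 and -0.53 ± 0.08 in Esh9-1, and NRP2 rose by 0.87 ± 0.08 in Esh9-1. PTPN1, whose phosphatase acts on MET, gave 1.00 ± 0.10 in ERC4 in its brightest probe set, while 217689_at was called lower (-0.42).

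Nearby genes on 7q31 were read because extra copies of MET usually carry its neighbours along, though arrays of transcripts give no copy number. Of 9 measured among 12 listed, 4 were higher and 1 lower in ERC4 (median 0.27), and 3 higher and 2 lower in Esh9-1 (median -0.08). Among all genes, 28.6% were called higher and 28.2% lower in ERC4, and 24.9% higher and 24.3% lower in Esh9-1. CAPZA2, encoding an actin-capping subunit, rose by 1.25 ± 0.11 in ERC4 and by 0.38 ± 0.11 in Esh9-1. CAV2 and CAV1, the caveolin genes, rose by 1.14 ± 0.10 and 0.40 ± 0.07 in ERC4, and by 1.61 ± 0.10 and 1.76 ± 0.07 in Esh9-1. Another CAV2 probe set, 213426_s_at, was called lower in ERC4 (-0.35). LSM8 gave 0.28 ± 0.08 in ERC4, a call that ended under a quantile normalization of each set (0.05), and 0.04 ± 0.08 in Esh9-1. TES gave 0.27 ± 0.14 (not called) in ERC4, where its other probe set 202719_s_at was called lower (-0.37), and -0.37 ± 0.14 in Esh9-1. CFTR was dim and was called at -0.51 ± 0.11 in ERC4 and -0.30 ± 0.11 in Esh9-1, while WNT2 (-0.03 and -0.20), ANKRD7 (-0.16 and -0.10) and TFEC (-0.01 and -0.08) were dim and not called. In Esh9-1 the call of CAPZA2 ended without HCC827NT replicate 2 (0.28). Leaving out any one of the 6 arrays compared ended the call of TES, of CFTR or of both there (-0.39 to -0.28), and that of TES ended without ERC4 replicate 1 too. Higher calls in ERC4 were made for 4 of 9 neighbours, beside 28.6% of all genes, and for 0 of the 4 MET probe sets.

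The genes whose pattern over the 12 arrays was most like each receptor probe set were found after removing the mean of each set of 6 arrays, among 9913 probe sets of other genes at or above the median signal. These likenesses rest on 4 groups of replicates, so they mostly reflect the group differences. For RON the closest were ADGRG1 (Pearson's r = 0.997), ST14 (r = 0.996) and MUC1 (r = 0.995). All 3 were lower in both comparisons, with log2 fold changes of -2.34, -2.68 and -2.78 in ERC4 and of -3.01, -3.01 and -3.28 in Esh9-1. The 2 _x_at probe sets of MET followed each other at r = 0.996, and SMARCA4 (208793_x_at) was among the closest to both, at 0.988 and 0.992. The others were TRAF4 (0.991) and ASPH (0.987) for 211599_x_at, and SOCS2 (0.991) and FLII (0.991) for 213807_x_at. For 213816_s_at they were IQGAP1 (0.968), PSME4 (0.957) and SPTLC2 (0.956). For 203510_at, which barely varied, they were GPR27 (0.875), NOLC1 (0.870) and BCL9 (0.850), and its r with the other MET probe sets was -0.415, -0.417 and -0.263.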

How the data were processed

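Transcripts were measured in 12 samples on 1-colour expression arrays. The deposited values are intensities on a linear scale, and the submitters' processing notes name RMA for making them. Neither its version nor which arrays were run together is known here. Per the labels' protocols, cRNA was primed from the poly(A) end. From them, log2(intensity + 1) was computed. Every probe set but 62 array controls was fitted with limma 3.58.1 in R 4.3.3 (lmFit, eBayes, 1 model of 12 arrays with a mean per group, 8 residual degrees of freedom), with Benjamini-Hochberg adjustment over 22215 probe sets. Both comparisons lie within a set. Symbols came from the platform annotation, updated through Entrez IDs, and 19064 probe sets had 1 symbol, 1043 several and 2108 none. For lists, the probe set with the highest mean stood for a gene. Members and lists were chosen with earlier results of these data known. Named are all members, EGFR, all measured MET neighbours, up to 5 called list genes with the largest change per comparison and the 3 genes most like each receptor probe set. MST1, HGFAC, LUM and probe sets that go against a gene's brightest were named after their values were seen. The RON to MET shift was tested by exact permutation over arrays. Alternatives changed the normalization, variance estimate, filter, threshold and arrays included. The fit was tested on simulated data. Replicate numbers did not pair the arrays (correlations of deviations -0.14 to 0.07). Precision is limited by the number of arrays (3 in each group). Promoter windows are RefSeq's (GRCh38.p14). Figures were drawn with matplotlib 3.10.9 in Python 3.11.15.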

Additional observations from a re-analysis of the deposited data

Results flagged for a closer look

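The difference between the ERC4 effect (ERC4 minus HCC827) and the Esh9-1 effect (Esh9-1 minus HCC827NT) was called in limma for 5 of the 10 probe sets, where 47.4% of all probe sets were called. It was 1.43 on the log2 scale for MET 211599_x_at (adjusted p = 3.8e-05), 1.32 for MET 213807_x_at (1.7e-05) and 0.58 for MET 213816_s_at (0.043), each less lowered in ERC4 than in Esh9-1. It was -0.78 for HGF 210998_s_at (0.0021), lower in ERC4 and higher in Esh9-1 than in their controls, and 0.52 for HGF 209960_at (0.0083). Of these, the MET 213816_s_at difference was not called under 10 of 21 alternatives, with 0.48 (adjusted p = 0.13) after the first set was stretched. Signal levels differ between the sets, so effects measured on unequal scales are compared here.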

How the results depend on the processing

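Over the 10 probe sets and both comparisons, 392 of 420 recomputed values kept direction and side of the threshold, 23 lost a call, 4 gained one and 1 turned sign, MET 203510_at in ERC4, which lay between -0.14 and 0.01 on leaving out single arrays. MST1R kept both calls throughout. The number of members called in ERC4 was 1 at the 0.01 threshold and lay between 3 and 6 on leaving out single arrays, with 3 without HCC827 replicate 1 or ERC4 replicate 3. With the replicate number as a block, 5 members were called in ERC4 and 7 in Esh9-1, and 11507 and 10214 probe sets in all. MET 211599_x_at in ERC4 lost its call (adjusted p = 0.055), and the within-array differences kept their means of 0.35 and 1.70 for MET and -1.54 and -2.09 for RON against MET (for the RON shifts, sign-flip exact p = 0.25, the smallest possible with 3 pairs). The difference of effects for MST1R was -0.02 when the first set was stretched. Uncalled values in ERC4 that turned sign were EGFR 211550_at (0.05) after quantile normalization within the set and 211551_at (-0.02 to 0.18 without single arrays), WNT2 at 0.06 after that normalization, 0.03 after median centring and -0.11 to 0.05 without single arrays, and TFEC at 0.08, 0.05 and -0.09 to 0.03. Fits of 6 arrays give no difference of effects. Counts over the named lists and the list genes were recomputed as alternatives added after the data were seen. Signal under the array median, in part near the lowest on the array, limits what the dim HGF probe sets can show. Signal close to or under the median limits what the lower RON levels can show.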

Other observations

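PTPN11, chosen here after its values were seen, showed a split like that of MET in Esh9-1. Its probe set of highest mean, 212610_at, gave a log2 fold change of -0.06 (limma adjusted p = 0.57), while 205867_at, 205868_s_at, 209895_at and 209896_s_at were called lower, at -0.80, -1.54, -1.29 and -1.24. CRKL, chosen in the same way, gave -0.02 in 212180_at (not called) and -1.69 in 206184_at (adjusted p = 3e-07).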
